A study of Saccharomyces cerevisiae with 15 samples.

Results

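Messenger RNA levels of Saccharomyces cerevisiae grown with methionine as the only nitrogen source were compared with levels in the same strain grown with phenylalanine. The arrays were chosen by their titles, which name the nitrogen source, and 6 of the 15 arrays of the series entered the comparison, 3 with methionine and 3 with phenylalanine. All 9275 probe sets that are not controls were considered, and 7459 passed the filter on low signals and were tested. The other 9 arrays, 3 each with asparagine, proline and leucine, entered the estimate of the spread and are used below to place the levels.

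All groups were CEN.PK113-7D, a haploid laboratory strain of mating type a that needs no added nutrient, with no gene deleted or added. Cultures were aerobic chemostats in which glucose (7.5 g/l in the feed) limited growth, so that all were held at 1 growth rate, a dilution rate of 0.10 per hour, at 30 °C and pH 5.0 with dissolved oxygen above 50% of air saturation. Phenylalanine was fed at 5.0 g/l and methionine at 11.3 g/l, so the source and its concentration in the feed changed together and cannot be told apart. The other 3 sources were fed at 5.0 g/l (asparagine), 8.8 g/l (proline) and 10.0 g/l (leucine). Every medium also held 6.6 g/l potassium sulfate. Sampling followed 10 to 14 changes of the culture volume. The labels state triplicates without saying that each came from its own culture, so the p-values reflect how far the 3 samples of a source differed, a spread that may be technical. Each array measured the RNA of a whole culture, so a change in some of the cells and a smaller change in all of them cannot be told apart. The MATa genes STE2, MFA1, MFA2, BAR1 and STE6 had signals of 48.3 or more on all 15 arrays, while the MATalpha genes STE3 and MF(ALPHA)2 stayed at or below 44.0, MF(ALPHA)1 at or below 74.4 and SAG1 at or below 151.

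Both amino acids are used through the Ehrlich pathway, in which an aminotransferase moves the amino group to a keto acid acceptor, the remaining keto acid is decarboxylated to an aldehyde, and the aldehyde is reduced to a fusel alcohol or oxidised to a fusel acid. The cell keeps the nitrogen and excretes the carbon skeleton. Aromatic amino acids induce the aminotransferase ARO9 and the decarboxylase ARO10 through the activator ARO80. Methionine is in addition a source of sulfur. Without it, yeast takes up sulfate, reduces it to sulfide and joins the sulfide to an acceptor derived from homoserine to make homocysteine and then methionine, and the genes of this route are switched on by MET4, which works with CBF1, MET28, MET31 and MET32 and is held inactive when organic sulfur is plentiful.

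The signal of a probe set is its brightness on a linear scale, scaled by the authors so that array means are equal. Differences are given on the log2 scale as methionine minus phenylalanine with their standard error (SE), and a probe set was called when limma's adjusted p was below 0.05. Calls numbered 1660 (22.3% of those tested), with 953 higher (12.8%) and 707 lower (9.48%) with methionine, and 612 (8.2%) also differed at least 2-fold, 391 higher (5.24%) and 221 lower (2.96%). Taking 1 probe set per gene, 1191 of 5388 genes (22.1%) were called, 654 higher (12.1%) and 537 lower (9.97%), and the median difference of all genes was 0.04. At least 2-fold changes were called for 304 genes (5.64%), 176 higher (3.27%) and 128 lower (2.38%), and the arrays of the groups did not overlap, called or not, for 36.2% of probe sets and 36.2% of genes. The split between directions depends on the scaling of the arrays: it was 838 higher and 883 lower after quantile normalization and 705 and 889 after median centring. Arrays correlated at 0.950 to 0.982 within the groups and 0.910 to 0.940 between them, across probe sets, which are not independent replicates. By number of calls the comparison ranked 4 among the 10 pairs of sources, which ranged from 957 (12.8%) to 2876 (38.6%).

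Several measures moved with the groups. The 3' to 5' signal ratio of the actin control, a measure of RNA integrity, was 1.76 ± 0.103 (SD, n = 3) with methionine and 2.81 ± 0.697 with phenylalanine, and the signal of the hybridisation controls 173 ± 15.6 and 450 ± 319. Neither overlapped between the groups (exact permutation test, 2-sided, p = 0.1 for each, the smallest value that 3 against 3 allows). The same ratio of the SPT15 control went the other way, 3.57 ± 0.181 (SD, n = 3) with methionine and 2.99 ± 1.10 with phenylalanine, with overlapping arrays. The actin and SPT15 ratios thus did not share a direction. Whether RNA integrity differed between the groups was not tested beyond these controls. With the actin ratio as a covariate 626 probe sets were called and with the hybridisation signal 638. Per the file headers, phenylalanine array 1 is a repeat of earlier runs of its sample after the scanner had been serviced, and the description codes of phenylalanine arrays 1 and 3 have another form than those of the others. The count was 1518 without array 1 and 1129 (425 higher, 704 lower) without both, which leaves 1 phenylalanine array, assumed to vary like the other groups. It was 990 without methionine array 2 (555 higher, 435 lower) and 1020 without methionine array 3 (554 and 466), and without phenylalanine array 3 the higher calls fell to 604. Of the 195 genes named by rule that were called, 110 stayed called in the same direction under all 19 alternative settings in which they were tested. A called gene described below, whether named by rule or not, kept its call in all of them unless a loss is stated.

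**Figure D1:**
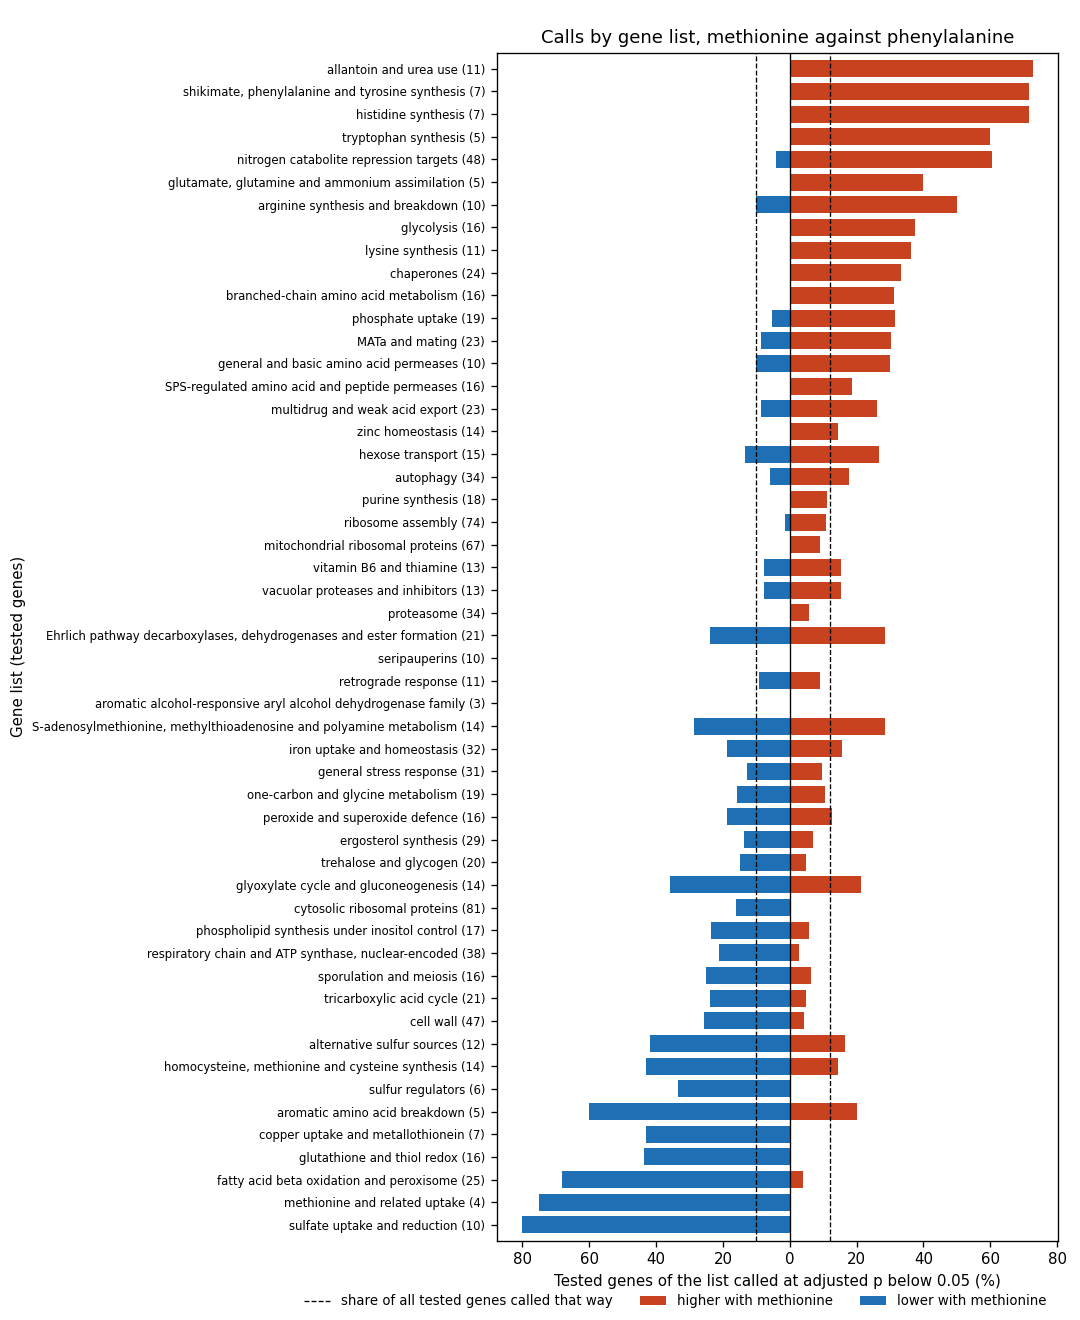
Share of the tested genes of each of 52 gene lists that were called higher (red, to the right) or lower (blue, to the left) with methionine than with phenylalanine, in percent, with the number of tested genes in brackets. Dashed lines mark the shares over all 5388 genes, 12.1% higher and 9.97% lower: sulfate uptake and reduction (8 of 10 lower) stands at 1 end and allantoin and urea use (8 of 11 higher) at the other.

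Most of the largest decreases with methionine were in sulfur assimilation. Of the 15 genes with the largest decreases, 10 were on the lists of sulfate assimilation, methionine synthesis and uptake and their regulators. Of 10 genes of sulfate uptake and reduction, 8 were lower and 0 higher (median log2 difference -2.96), and the count of 8 was the same with each covariate, without any single array and without phenylalanine 1 and 3. For all 8 genes the 3 methionine arrays lay below the 12 arrays of the other 4 sources, a position held by 5.98% of all genes. The step into the cell was among them. The sulfate permease SUL1 had signals of 79.4, 58.8 and 61.8 with methionine against 789, 529.9 and 677 with phenylalanine. The groups lay about an order of magnitude apart without overlap, and SUL1 was 9.94-fold lower (log2 difference -3.31, SE 0.17, adjusted p = 2.30e-09). The second sulfate permease, SUL2, read 39.4, 31.6 and 37.9 with methionine against 523, 480.3 and 356 with phenylalanine and was 12.4-fold lower (log2 difference -3.63, SE 0.19, adjusted p = 2.64e-09).

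Inside the cell sulfate is activated and reduced. MET3, the ATP sulfurylase that starts activation, read 65.3, 64.4 and 85.3 with methionine against 659, 747 and 635 with phenylalanine, a 9.55-fold decrease (log2 difference -3.26, SE 0.13, adjusted p = 1.72e-10). MET14, the kinase of the next step, read 114, 103 and 118 with methionine against 1101, 1270.5 and 1274 with phenylalanine and was 10.9-fold lower (log2 difference -3.45, SE 0.13, adjusted p = 8.70e-11). In both genes the replicates of a group differed by far less than the groups. The reductase MET16 was 4.58-fold lower, from 251 ± 4.30 (SD, n = 3) with phenylalanine to 55.0 ± 3.11 with methionine (log2 difference -2.19, SE 0.16, adjusted p = 1.37e-07). The sulfite reductase subunits fell as well: MET10 read 26.1, 25.6 and 25 with methionine against 267, 231 and 272 with phenylalanine (10.0-fold lower, log2 difference -3.33, SE 0.14, adjusted p = 1.74e-10). The other subunit, MET5, was 6.37-fold lower (log2 difference -2.67, SE 0.10, adjusted p = 1.28e-10), and so was MET1, which makes the sirohaem cofactor of that enzyme, by -1.25 on the log2 scale (SE 0.13, adjusted p = 1.32e-05). The 2 genes of the list that did not pass were MET8, of the same cofactor pathway (difference -0.00, adjusted p = 0.993), and MET22, which removes the phosphoadenosine by-product (0.03, 0.869).

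Of 14 genes that make homocysteine, methionine and cysteine, 6 were lower and 2 higher (median -0.18; 9.97% of all genes were lower), again with the same count of 6 with each covariate and without any single array. MET2, homoserine acetyltransferase, which makes the acceptor of sulfide, showed the largest decrease of any gene. Its methionine signals of 1.5, 4.2 and 4.2 were at the bottom of the scale while phenylalanine arrays read 481, 422 and 422. Signals at or under 9.9 (25% of all values lie lower) were taken as a bound, so that for a group mean in that range only a minimum fold, the brighter mean over 9.9, is given, and MET2 was at least 44.5-fold lower (adjusted p = 1.55e-11). With asparagine, proline and leucine it read 287 to 519, a range that held all 3 phenylalanine arrays and no methionine array. MET17, which joins sulfide to that acceptor, read 713, 747 and 743 with methionine against 2703, 3776 and 4349 with phenylalanine and was 4.82-fold lower (log2 difference -2.27, SE 0.15, adjusted p = 6.48e-08). The methionine synthase MET6 was 3.94-fold lower, from 731 ± 74.1 to 185 ± 13.7 (log2 difference -1.98, SE 0.12, adjusted p = 3.06e-08).

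Transsulfuration, the exchange of sulfur between cysteine and homocysteine, did not move as 1 block. CYS3, which makes cysteine from cystathionine, was 2.66-fold lower (log2 difference -1.41, SE 0.14, adjusted p = 8.62e-06), and STR3, which makes homocysteine from cystathionine, was 2.84-fold lower (log2 difference -1.51, SE 0.19, adjusted p = 7.09e-05). CYS4, which makes cystathionine from homocysteine, was 1.49-fold lower (log2 difference -0.58, SE 0.12, adjusted p = 0.00447). STR2, which makes cystathionine from cysteine, went the other way, at 232, 245 and 283 with methionine against 127, 156 and 148 with phenylalanine, and was 1.76-fold higher (log2 difference 0.82, SE 0.13, adjusted p = 0.000423). The other gene that was higher, HOM2, acts in the branch from aspartate to homoserine (1.76-fold, log2 difference 0.81, SE 0.16, adjusted p = 0.00237). The remaining 6 genes, SAH1, HOM6, MET7, MET12, HOM3 and MET13, did not pass, with differences from -0.20 to 0.37.

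Among 14 genes of S-adenosylmethionine, methylthioadenosine and polyamine metabolism, 4 were lower and 4 higher. The S-adenosylmethionine synthetases SAM1 and SAM2 were both lower, SAM1 by 2.54-fold (120.2, 122 and 130.4 against 309.7, 288 and 353, log2 difference -1.35, SE 0.15, adjusted p = 1.68e-05). SAM2 read 409.8, 349.9 and 362 with methionine against 899.9, 942 and 959 with phenylalanine and was 2.50-fold lower (log2 difference -1.32, SE 0.10, adjusted p = 3.14e-07). MHT1, which uses S-methylmethionine to methylate homocysteine, read 0.8, 4.3 and 3.7 with methionine against 118, 122 and 78.1 with phenylalanine and was at least 10.5-fold lower (adjusted p = 1.44e-09). ADI1, an enzyme of methionine salvage, was 3.10-fold lower (log2 difference -1.63, SE 0.13, adjusted p = 3.14e-07). Higher were SAM4 (2.40-fold, log2 difference 1.27, SE 0.19, adjusted p = 0.000315), which methylates homocysteine from S-adenosylmethionine, and the polyamine genes SPE1, SPE2 and SPE4. SPE1, ornithine decarboxylase, was 2.65-fold higher (log2 difference 1.41, SE 0.26, adjusted p = 0.00171), a call lost with the actin covariate and without phenylalanine 1 and 3, while SPE2 was lost under 11 alternatives and SPE4 under 8. The 4 higher calls became 2 without methionine 3 or without phenylalanine 3, 1 with the actin covariate and 2 with the hybridisation covariate, whereas the 4 lower ones stayed 4 in each.

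**Figure D2:**
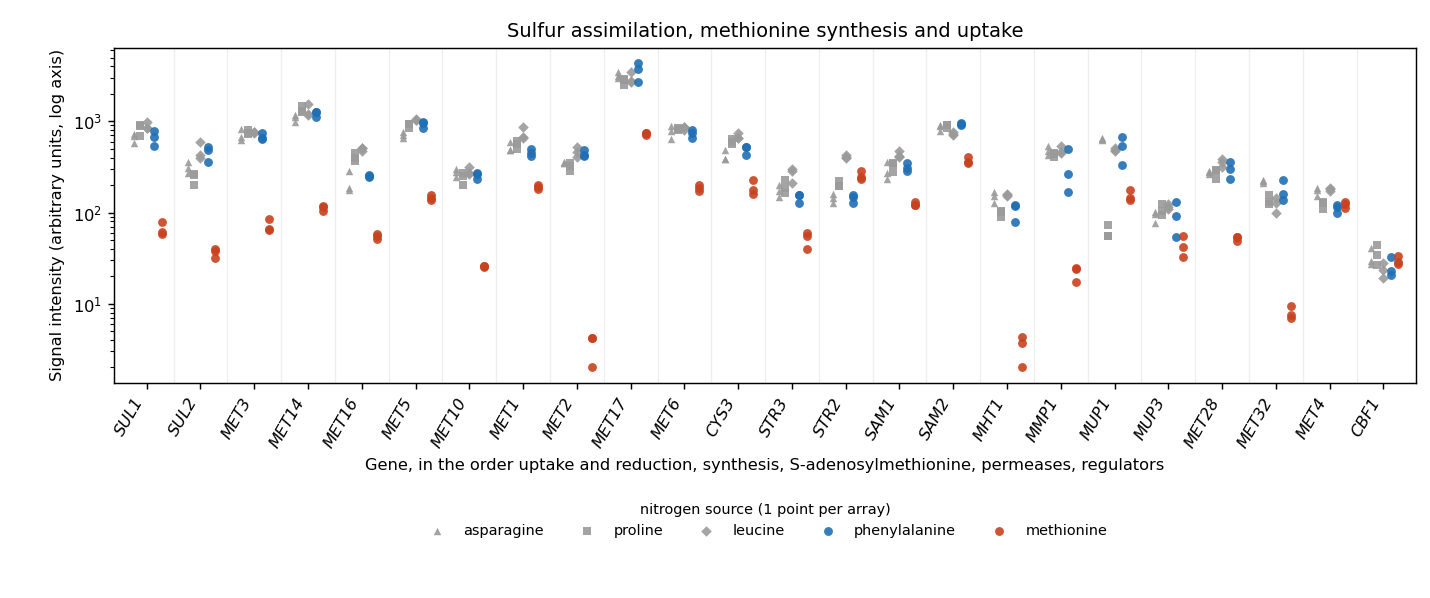
Signal intensity of 24 sulfur genes on each of the 15 arrays (log axis, values below 2.0 drawn at 2.0), 1 point per array, methionine in red, phenylalanine in blue and the other 3 sources in grey. Methionine arrays lie below all others for SUL1 to MET6, whereas MET4 and CBF1 overlap.

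Uptake and control of the pathway followed in part. MMP1, the S-methylmethionine permease encoded next to MHT1 on chromosome XII, read 24.9, 17.4 and 23.9 with methionine against 263, 491 and 166 with phenylalanine and was 12.8-fold lower (log2 difference -3.67, SE 0.27, adjusted p = 1.94e-07). The high-affinity methionine permease MUP1 read 144, 175 and 138 with methionine against 536, 668 and 328 with phenylalanine and was 3.23-fold lower (log2 difference -1.69, SE 0.20, adjusted p = 3.53e-05). It was not at its lowest with methionine, since the arrays of the other 3 sources ranged from 54.7 to 662. The low-affinity permease MUP3 was 2.04-fold lower with overlapping arrays (log2 difference -1.03, SE 0.26, adjusted p = 0.0115), a call lost when fitted on the 6 arrays alone and without methionine 1, and the S-adenosylmethionine permease SAM3 did not pass (0.41, adjusted p = 0.442). Of 6 regulators, 2 were lower and 0 higher. MET32, a DNA-binding partner of MET4, read 9.5, 7.6 and 6.9 with methionine against 228, 136 and 158 with phenylalanine and was at least 17.2-fold lower (adjusted p = 4.49e-10). MET28, another partner, was 5.65-fold lower (54, 53.5 and 48.9 against 302, 360.4 and 234, log2 difference -2.50, SE 0.15, adjusted p = 1.93e-08). The activator MET4 itself read 113, 129 and 124 with methionine against 114, 122 and 99.1 with phenylalanine, overlapping values with a difference of 0.13 (adjusted p = 0.491). CBF1 (0.27, 0.455), MET31 (-0.15, 0.52) and MET30, the ubiquitin ligase subunit that restrains MET4 (-0.39, 0.155), did not pass either.

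Of the tested genes for other sulfur sources 58.3% were called, and of those for glutathione and thiol redox 43.8%, mostly as lower. Of 12 tested genes for alternative sulfur sources, 5 were lower and 2 higher (4 and 0 with the actin covariate, 4 and 1 with the hybridisation covariate), and the 2 higher calls were 0 without methionine 2 and 1 without methionine 3 or phenylalanine 3. The glutathione transporter OPT1 was at least 2.13-fold lower (2.2, 6.6 and 7.7 against 26.8, 24 and 14.5, adjusted p = 0.00161). DUG3, of the complex that degrades glutathione, was 2.70-fold lower (log2 difference -1.43, SE 0.19, adjusted p = 0.000117). Its partner DUG2 was 1.82-fold lower, a call lost without phenylalanine 1 and 3. Of 16 genes of glutathione and thiol redox, 7 were lower and 0 higher, which became 4 with either covariate and 4 without methionine 2 or methionine 3. MXR1, the methionine sulfoxide reductase, read 63.3, 39.4 and 49.9 with methionine against 212, 228 and 214 with phenylalanine and was 4.37-fold lower (log2 difference -2.13, SE 0.17, adjusted p = 4.81e-07). The mitochondrial thioredoxin reductase TRR2 was 2.01-fold lower (log2 difference -1.01, SE 0.14, adjusted p = 0.000193) and the peroxidase HYR1 1.57-fold lower (log2 difference -0.65, SE 0.12, adjusted p = 0.00131). GSH1, which makes the precursor of glutathione, was 1.73-fold lower, a call lost without phenylalanine 1 and 3.

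One gene of sulfur compound metabolism stood at the opposite end. IRC7, a beta-lyase that can release thiols and sulfide from cysteine compounds, read 302, 274 and 267 with methionine against 20.8, 21.4 and 21.9 with phenylalanine. Both groups were tight, and IRC7 was 13.1-fold higher with methionine (log2 difference 3.71, SE 0.19, adjusted p = 2.85e-09). The arrays of the other 3 sources ranged from 12.3 to 49.2, far under the methionine arrays. Of 16 genes of peroxide and superoxide defence 2 were higher and 3 lower (2 and 2 with each covariate), beside 12.1% and 9.97% of all genes. The higher ones were the peroxiredoxins TSA2 and AHP1, which use thiols to remove peroxides, TSA2 at 131, 140.4 and 174 with methionine against 31.4, 63.9 and 38.3 with phenylalanine (3.46-fold, log2 difference 1.79, SE 0.20, adjusted p = 1.97e-05). AHP1 was 2.28-fold higher (log2 difference 1.19, SE 0.20, adjusted p = 0.00073), with its phenylalanine arrays of 306, 664 and 374 below the 796 to 1484 of asparagine, proline and leucine.

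Of 5 genes listed under aromatic amino acid breakdown, not all of them specific to it, 3 were lower with methionine, 1 was higher and 1 did not pass. Among the 19 alternative settings the counts were the same in each that tested all 5, both covariates included (the filter at the 50th percentile left out ARO80). For ARO9, ARO10 and ARO80 the phenylalanine arrays lay above all 12 others, a position held by 1.61% of all genes. ARO9, the inducible aromatic aminotransferase, read 822, 852 and 778 with methionine against 1840.1, 1643 and 2027 with phenylalanine and was 2.24-fold lower with methionine (log2 difference -1.16, SE 0.12, adjusted p = 8.62e-06). Asparagine arrays read 298 to 345, proline arrays 162 to 178 and leucine arrays 976 to 1236, so the methionine arrays lay above asparagine and proline and below leucine. ARO10, the broad keto acid decarboxylase, read 978, 852 and 859 with methionine against 1778, 2035 and 2176 with phenylalanine and was 2.22-fold lower (log2 difference -1.15, SE 0.17, adjusted p = 0.000246), with asparagine at 52.3 to 72.7, proline at 29.4 to 42.1 and leucine at 880.3 to 1216. The activator ARO80 read 12.5, 14.8 and 19.1 with methionine against 34.3, 41.8 and 49.2 with phenylalanine and was 2.71-fold lower (log2 difference -1.44, SE 0.22, adjusted p = 0.000394), and on the other 9 arrays it ranged from 10.6 to 18.7, overlapping the methionine arrays.

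ARO8, the constitutive aromatic aminotransferase, which also acts on methionine, moved against ARO9. Its methionine arrays read 1898, 1989 and 1835, above all 12 others, and its phenylalanine arrays 685, 849 and 694 (2.58-fold higher, log2 difference 1.37, SE 0.12, adjusted p = 1.33e-06). The plasma membrane transporter ESBP6, the fifth gene, did not pass (-0.15, adjusted p = 0.431). The branched-chain aminotransferases, which accept methionine too, were both higher with methionine. BAT1, the mitochondrial form, read 904, 930.2 and 837 with methionine against 645, 475 and 483 with phenylalanine and was 1.68-fold higher (log2 difference 0.75, SE 0.12, adjusted p = 0.000574). BAT2, the cytosolic form, was 1.40-fold higher at 1475, 1559.6 and 1512 with methionine against 1065, 1019.8 and 1174 with phenylalanine (log2 difference 0.48, SE 0.14, adjusted p = 0.0266), but that call was lost under 9 of the 19 alternatives, with median centring and either covariate among them.

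Of 21 further decarboxylases, dehydrogenases and ester-forming enzymes of the pathway, ARO10 included, 6 were higher and 5 lower (4 and 4 with the actin covariate, 5 and 5 with the hybridisation covariate). ADH5, an alcohol dehydrogenase, read 1009, 1086 and 1067 with methionine against 230.1, 311 and 388 with phenylalanine, above the 152 to 626 of the other 3 sources, and was 3.48-fold higher (log2 difference 1.80, SE 0.15, adjusted p = 7.78e-07). The pyruvate decarboxylase PDC1 was 1.87-fold higher (log2 difference 0.90, SE 0.19, adjusted p = 0.00427), while PDC5 (0.13, adjusted p = 0.67) and PDC6 (-0.61, 0.0786) did not pass. ALD6, the cytosolic aldehyde dehydrogenase, was 1.70-fold higher (log2 difference 0.77, SE 0.13, adjusted p = 0.00107), with phenylalanine arrays at 387, 409 and 289 below all 12 others. ADH2, the glucose-repressed alcohol dehydrogenase that oxidises ethanol, read 663, 305 and 294 with methionine against 4288, 4248 and 4938 with phenylalanine and was 11.5-fold lower (log2 difference -3.52, SE 0.23, adjusted p = 5.63e-08), with methionine 1 above the other methionine arrays but far below all phenylalanine arrays. The exporter of organic acids PDR12 was high with both sources, at 1726, 1550.5 and 1529 with methionine against 1666, 1939 and 2195 with phenylalanine, and did not differ beyond its spread (-0.26, adjusted p = 0.593). Its activator WAR1 did not pass either (0.12, 0.562), nor did any of the 3 tested aryl alcohol dehydrogenases of the AAD family.

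**Figure D3:**
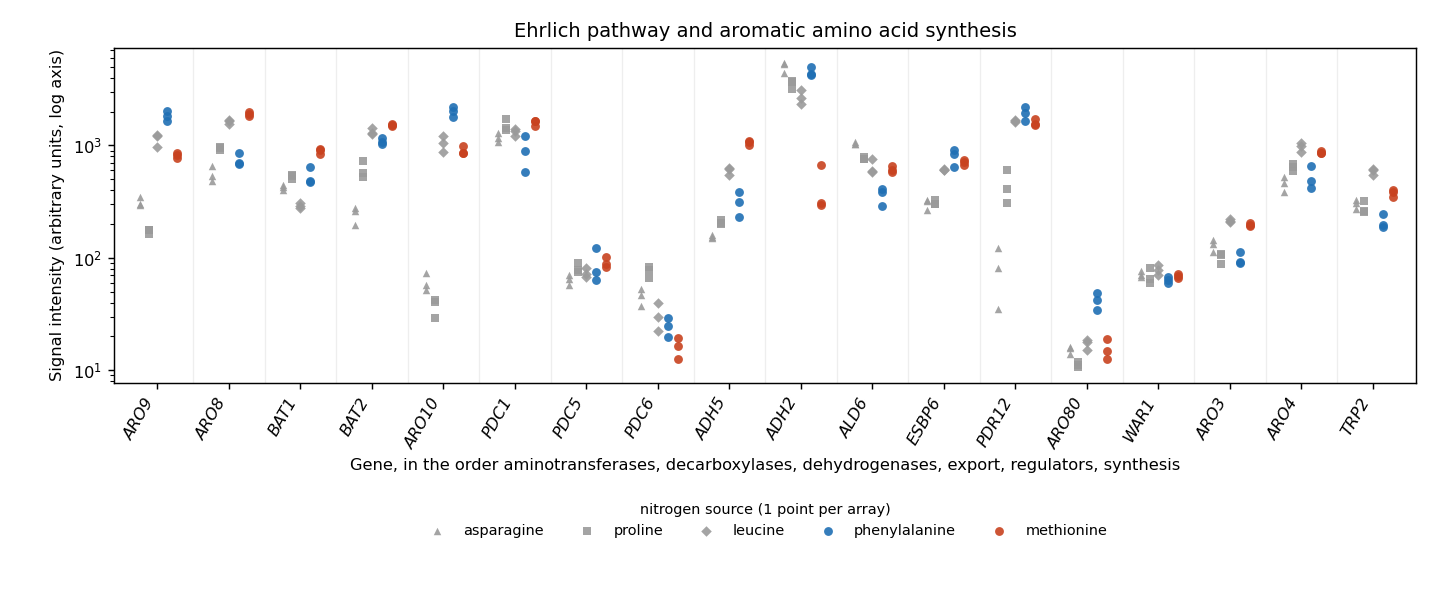
Signal intensity of 18 genes of the Ehrlich pathway and of aromatic amino acid synthesis on each of the 15 arrays (log axis), 1 point per array. ARO9, ARO10 and ARO80 are highest with phenylalanine (blue), ARO8 and ADH5 with methionine (red), and PDR12 overlaps between the 2 sources.

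Most genes that make aromatic amino acids were higher with methionine. Whether the feeding of an aromatic amino acid played a part was not tested. Of 7 genes of the shikimate, phenylalanine and tyrosine route, 5 were higher and 0 lower (median 0.65; 3 with each covariate). ARO3 and ARO4 encode the feedback-inhibited enzymes that open the route. ARO3, the form inhibited by phenylalanine, read 198, 192 and 205 with methionine against 90.8, 114 and 91.1 with phenylalanine and was 2.02-fold higher (log2 difference 1.02, SE 0.13, adjusted p = 0.000105). ARO4, the form inhibited by tyrosine, read 863, 898 and 864 with methionine against 421, 482 and 655 with phenylalanine and was 1.71-fold higher (log2 difference 0.78, SE 0.15, adjusted p = 0.00248). ARO1, ARO7 and TYR1 were 1.39-fold to 1.60-fold higher, and each of these calls was lost under 2 or more of the alternatives. ARO2 (0.38, adjusted p = 0.0806) and PHA2 (-0.18, 0.38) did not pass. Of 5 tryptophan genes 3 were higher (2 with each covariate), TRP2 by 1.81-fold (log2 difference 0.86, SE 0.13, adjusted p = 0.000469) and TRP3 by 1.68-fold (log2 difference 0.75, SE 0.12, adjusted p = 0.000582). Levels of ARO3 with asparagine, proline and leucine spanned 88.6 to 219.7, which covers both groups.

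Some genes of other amino acid routes were higher with methionine, beside 12.1% of all genes higher and 9.97% lower. Of 7 histidine genes 5 were higher and 0 lower (3 with the actin and 4 with the hybridisation covariate), HIS5 by 1.82-fold (log2 difference 0.87, SE 0.13, adjusted p = 0.000367). Of 11 lysine genes 4 were higher and 0 lower (2 with the actin, 5 with the hybridisation covariate), which became 2 without methionine 3, and LYS1, saccharopine dehydrogenase, was 2.27-fold higher at 658, 779 and 701 with methionine against 326, 349.6 and 271 with phenylalanine (log2 difference 1.18, SE 0.12, adjusted p = 1.14e-05). Of 16 branched-chain genes 5 were higher and 0 lower (1 with the actin, 2 with the hybridisation covariate), which became 3 without methionine 3. Of 10 arginine genes 5 were higher and 1 lower (3 and 0 with the actin, 4 and 0 with the hybridisation covariate), the 1 lower call being lost without any 1 of the methionine arrays or phenylalanine 3. ORT1, the mitochondrial ornithine carrier, was 2.39-fold higher (log2 difference 1.26, SE 0.19, adjusted p = 0.000319). GCN4, the activator of general amino acid control, did not pass at the level of its mRNA (-0.16, adjusted p = 0.359), and its control is known to act mainly on translation. GLY1, the threonine aldolase that makes glycine, read 495, 536 and 470 with methionine against 146, 138 and 92 with phenylalanine and was 4.07-fold higher (log2 difference 2.02, SE 0.20, adjusted p = 6.23e-06). For GLY1 phenylalanine lay below and methionine above the 207 to 425 of the other 3 sources. The neighbouring vitamin B6 genes SNZ1 and SNO1 were 5.07-fold and 5.45-fold higher. SNZ1 read 506, 528 and 569 with methionine against 71.5, 99.3 and 164 with phenylalanine (log2 difference 2.34, SE 0.21, adjusted p = 2.36e-06), and SNO1 read 282, 344 and 322 with methionine against 34.4, 60.6 and 92.5 with phenylalanine (log2 difference 2.45, SE 0.30, adjusted p = 4.44e-05).

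Most nitrogen catabolite repression targets, genes for the uptake and breakdown of poor nitrogen sources that GATA factors silence on rich ones, were higher with methionine. Of 48 tested targets, 29 were higher and 2 lower (median 0.54, beside 0.04 for all genes). With the actin covariate 19 were higher and with the hybridisation covariate 21, and leaving out single arrays gave 24 to 30. The 2 lower calls were 0 to 3 in those left-out fits, 0 without methionine 2 and 1 without methionine 1, methionine 3 or phenylalanine 3. For 16 of the 48 genes the methionine arrays lay above all 12 others, against 4.18% of all genes. Allantoin and urea genes, a subset used to live on purine waste, gave 8 higher and 0 lower of 11, with 7 and 8 under the covariates and 8 without any single array.

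The permeases and catabolic enzymes of this set included some of the larger differences. DAL5, the allantoate and dipeptide permease, read 1129, 1229 and 1134 with methionine against 151, 148 and 265 with phenylalanine and was 6.44-fold higher (log2 difference 2.69, SE 0.18, adjusted p = 8.16e-08). DUR3, the urea transporter, read 675, 606 and 648 with methionine against 139.9, 313 and 206 with phenylalanine and was 3.09-fold higher (log2 difference 1.63, SE 0.21, adjusted p = 7.40e-05). The allantoinase DAL1 was 3.19-fold higher (log2 difference 1.67, SE 0.26, adjusted p = 0.000442), the ureidoglycolate lyase DAL3 1.80-fold higher (log2 difference 0.85, SE 0.11, adjusted p = 0.000102) and the malate synthase DAL7 2.30-fold higher (log2 difference 1.20, SE 0.17, adjusted p = 0.000216). DAL80, a GATA repressor of these genes, was 3.38-fold higher, a call lost with the actin covariate and without phenylalanine 1 and 3. OPT2, an oligopeptide transporter family member, read 911, 785 and 927 with methionine against 134, 200.1 and 199.8 with phenylalanine and was 4.98-fold higher (log2 difference 2.32, SE 0.22, adjusted p = 4.16e-06). The arginase CAR1, which degrades arginine, read 1802, 1682 and 1712 with methionine against 377, 405 and 296 with phenylalanine, with no array of 1 group near the other (4.86-fold higher, log2 difference 2.28, SE 0.13, adjusted p = 1.19e-08). CAR2, the next enzyme, was 2.11-fold higher (log2 difference 1.08, SE 0.16, adjusted p = 0.000392). PUT1, proline oxidase, was 2.95-fold higher (log2 difference 1.56, SE 0.17, adjusted p = 1.46e-05) and UGA4, the permease for gamma-aminobutyrate, 2.98-fold higher (log2 difference 1.58, SE 0.22, adjusted p = 0.000185). YHI9 was 2.73-fold higher (log2 difference 1.45, SE 0.12, adjusted p = 9.35e-07).

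Several targets did not pass, among them permeases of broad range. The general amino acid permease GAP1 read 2738, 2938 and 2696 with methionine against 2520, 2491 and 2640 with phenylalanine, a difference of 0.13 (adjusted p = 0.46), and both sources lay above the 156 to 2160.3 of the others. The broad permease AGP1 did not pass (0.09, 0.711), nor did glutamine synthetase GLN1 (-0.22, 0.302) or the glutamate dehydrogenase GDH3 (-0.20, 0.335). The ammonium permease MEP2 was 1.82-fold higher (1584, 1464 and 1437 against 759, 814 and 897, log2 difference 0.86, SE 0.14, adjusted p = 0.000518). GDH2, which releases ammonium from glutamate, was 1.77-fold higher (log2 difference 0.82, SE 0.14, adjusted p = 0.00104), and GLT1, glutamate synthase, 1.62-fold higher, a call lost without phenylalanine 1 and 3. The histidine permease HIP1 was 2.03-fold higher (log2 difference 1.02, SE 0.17, adjusted p = 0.000603). The arginine permease CAN1 read 502, 502 and 477 with methionine against 229.8, 232 and 215 with phenylalanine and was 2.19-fold higher (log2 difference 1.13, SE 0.23, adjusted p = 0.00282), a call lost with the actin covariate and with the hybridisation covariate. Of 16 permease and sensor genes under the SPS amino acid sensor, 3 were higher and 0 lower, beside 12.1% and 9.97% of all genes. Under the actin covariate 0 were higher and under the hybridisation covariate 1. The peptide transporter PTR2 was among the 3 higher genes (2.53-fold, log2 difference 1.34, SE 0.27, adjusted p = 0.00279, lost with the actin covariate).

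**Figure D4:**
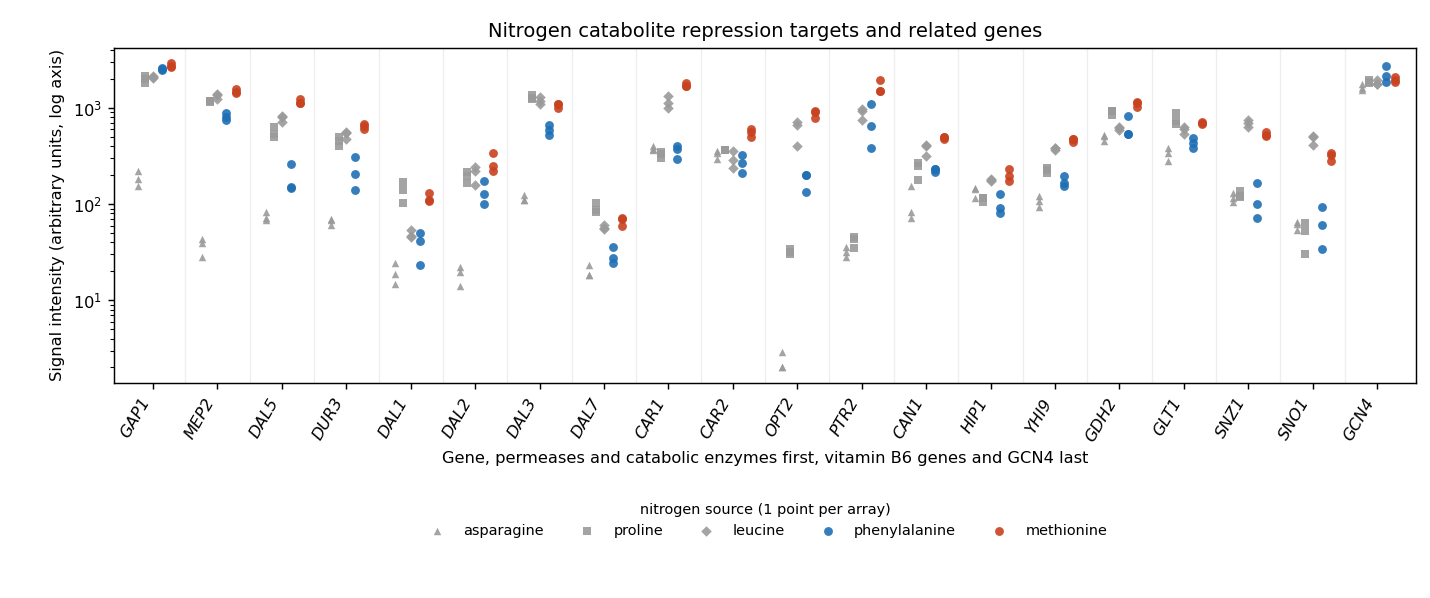
Signal intensity of 20 genes of nitrogen catabolite repression and related functions on each of the 15 arrays (log axis, values below 2.0 drawn at 2.0), 1 point per array. Methionine (red) lies above phenylalanine (blue) for DAL5, DUR3, CAR1 and OPT2, while the 2 sources stand within a narrow band for GAP1 and overlap for GCN4.

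Most genes of fatty acid breakdown were lower with methionine. Of 25 genes of beta oxidation and the peroxisome, 17 were lower and 1 higher (median -1.03). With the actin covariate 15 were lower and with the hybridisation covariate 16, and 16 to 17 in fits without single arrays. The 1 higher call, CRC1, was lost under 14 alternatives. For 14 of the 25 genes the methionine arrays lay below all 12 others, against 5.98% of all genes. For POX1, FOX2 and POT1, which carry out the core steps, the groups did not overlap. FOX2, the second enzyme of beta oxidation, read 375, 360.5 and 393 with methionine against 969, 989.9 and 1053 with phenylalanine and was 2.67-fold lower (log2 difference -1.42, SE 0.10, adjusted p = 9.90e-08). POX1, the oxidase that starts the spiral, was 2.04-fold lower (log2 difference -1.03, SE 0.17, adjusted p = 0.000584), and POT1, the thiolase that ends it, 2.30-fold lower (log2 difference -1.20, SE 0.13, adjusted p = 1.68e-05). CTA1, the peroxisomal catalase, read 244, 177 and 175 with methionine against 1090.4, 701 and 536 with phenylalanine and was 3.78-fold lower (log2 difference -1.92, SE 0.20, adjusted p = 1.14e-05). The thioesterase TES1 was 2.85-fold lower (log2 difference -1.51, SE 0.16, adjusted p = 9.39e-06), and SPS19, a dienoyl-CoA reductase for unsaturated fatty acids, 2.49-fold lower (log2 difference -1.32, SE 0.11, adjusted p = 1.12e-06). PXA1, a subunit of the transporter that brings fatty acids into the peroxisome, was 2.83-fold lower (log2 difference -1.50, SE 0.19, adjusted p = 7.24e-05). The transcription factors of this pathway, OAF1 (0.06, adjusted p = 0.84) and PIP2 (0.10, 0.688), did not pass, nor did the import receptors PEX5 (-0.14, 0.753) and PEX7 (-0.38, 0.12).

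Genes for the use of ethanol and acetate were lower in part. Besides ADH2, the acetate transporter ADY2 read 44.5, 33.8 and 42.7 with methionine against 431, 479 and 246 with phenylalanine and was 9.24-fold lower (log2 difference -3.21, SE 0.23, adjusted p = 1.64e-07). ACS1, which activates acetate, was 2.28-fold lower (log2 difference -1.19, SE 0.13, adjusted p = 1.36e-05). CIT3, a mitochondrial citrate and methylcitrate synthase, read 316, 255 and 234 with methionine against 894, 884 and 1473 with phenylalanine and was 3.95-fold lower (log2 difference -1.98, SE 0.21, adjusted p = 1.14e-05). ICL2, the mitochondrial methylisocitrate lyase, read 516, 478 and 428 with methionine against 1176, 1211 and 1265 with phenylalanine and was 2.57-fold lower (log2 difference -1.36, SE 0.10, adjusted p = 1.39e-07). Both enzymes belong to the breakdown of propionyl-CoA. ICL1, the isocitrate lyase of the glyoxylate cycle, went the other way, 1038, 1061 and 993 with methionine against 473, 489.6 and 408 with phenylalanine (2.26-fold higher, log2 difference 1.18, SE 0.12, adjusted p = 8.60e-06). Of the 14 genes of the glyoxylate cycle and gluconeogenesis 5 were lower and 3 higher (3 and 2 with the actin, 4 and 1 with the hybridisation covariate), and the 5 became 3 without methionine 3.

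Glucose limited growth in every culture, and the hexose transporters HXT3 and HXT4 were higher with methionine. HXT3 read 799, 908 and 785 with methionine against 92.5, 85.8 and 101 with phenylalanine and was 8.92-fold higher (log2 difference 3.16, SE 0.32, adjusted p = 8.09e-06), above the 58.9 to 547 of the other sources, where leucine reached highest. HXT4 read 311, 363 and 288 with methionine against 65.8, 101 and 165 with phenylalanine and was 3.10-fold higher (log2 difference 1.63, SE 0.29, adjusted p = 0.00129). Other hexose transporters did not share a direction. HXT2 was 1.69-fold higher (log2 difference 0.76, SE 0.16, adjusted p = 0.00425), a call lost with the hybridisation covariate and without phenylalanine 1 and 3. HXT6 was 1.38-fold lower (log2 difference -0.46, SE 0.12, adjusted p = 0.0138), a call lost under 5 alternatives, and HXT7 did not pass (-0.32, adjusted p = 0.0854), and both were read from probe sets with shared sequence. In all, 4 of 15 tested hexose transport genes were higher and 2 lower, beside 12.1% and 9.97% of all genes (4 and 0 with the actin, 3 and 0 with the hybridisation covariate). The 2 lower calls became 1 without methionine 2 or methionine 3. Besides HXT6, the other lower gene was at least 2-fold lower, and differences on the list ran from -2.07 to 3.16. For HXT10 the phenylalanine arrays lay above all 12 others. Of 16 glycolytic genes 6 were higher and 0 lower (4 with each covariate, and 2 lower without phenylalanine 1), with the minor pyruvate kinase PYK2 2.24-fold higher (log2 difference 1.16, SE 0.18, adjusted p = 0.000499) and TDH1 1.62-fold higher (log2 difference 0.70, SE 0.14, adjusted p = 0.00348). Of 38 nuclear genes of the respiratory chain and ATP synthase 8 were lower and 1 higher, beside 9.97% and 12.1% of all genes. With the actin covariate 0 were lower and with the hybridisation covariate 3. The 8 became 5, 3 and 4 without methionine 1, 2 and 3 and 4 without phenylalanine 3.

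**Figure D5:**
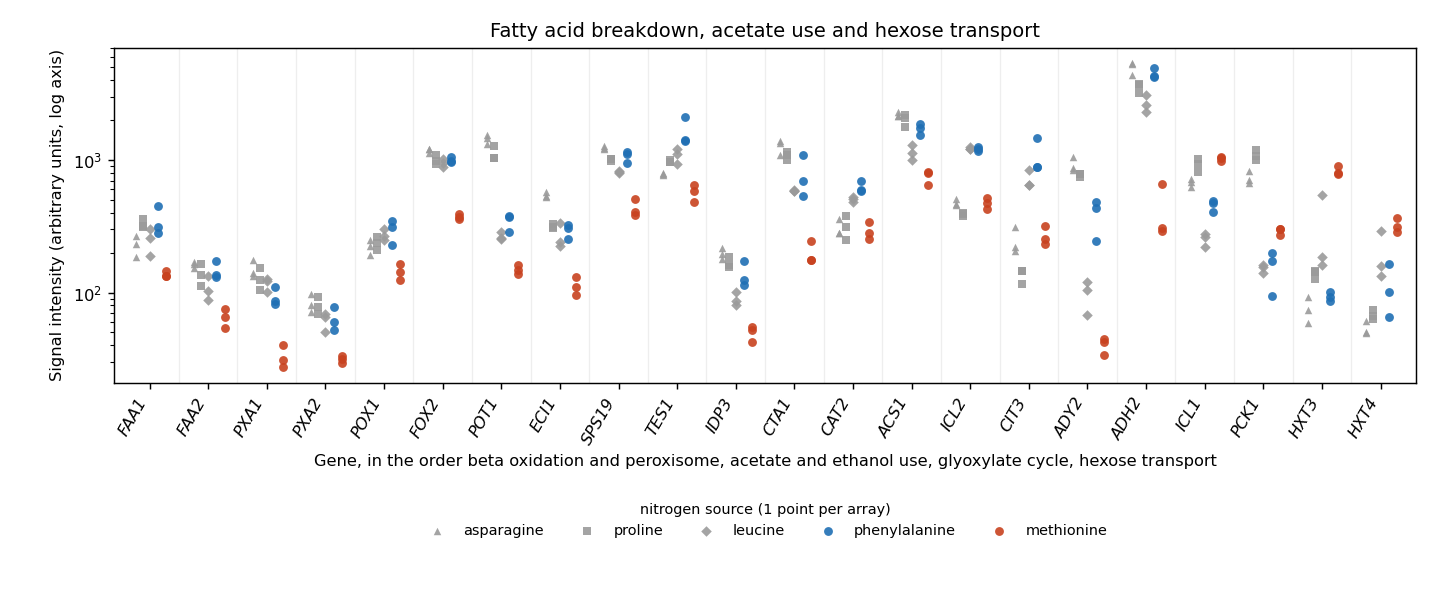
Signal intensity of 22 genes of fatty acid breakdown, acetate and ethanol use, the glyoxylate cycle and hexose transport on each of the 15 arrays (log axis), 1 point per array. Methionine (red) lies below phenylalanine (blue) for every gene from FAA1 to ADH2 and above it for ICL1, PCK1, HXT3 and HXT4.

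Genes of metal and phosphate supply changed in both directions. FRE4, a siderophore-iron reductase, was at least 5.14-fold lower (7.1, 7.7 and 8 against 48.2, 63.4 and 43.1, adjusted p = 1.98e-06). FIT3, a wall mannoprotein that helps retain siderophore iron, was 3.64-fold lower (log2 difference -1.86, SE 0.27, adjusted p = 0.000239), and the haem oxygenase HMX1 2.22-fold lower (log2 difference -1.15, SE 0.13, adjusted p = 1.94e-05). MRS4, a mitochondrial iron carrier, was 2.22-fold higher (log2 difference 1.15, SE 0.16, adjusted p = 0.000161). Of 32 iron genes 6 were lower and 5 higher in all (4 and 3 with the actin, 5 and 3 with the hybridisation covariate), beside 9.97% and 12.1% of all genes. The 5 became 3 without any 1 of the methionine arrays, phenylalanine 2 or phenylalanine 3. Among 7 copper genes 3 were lower and 0 higher (3 and 1 with the actin, 2 and 0 with the hybridisation covariate, and 1 higher without phenylalanine 1). CTR3, a copper permease, read 37.2, 36.9 and 38.8 with methionine against 132, 104 and 151 with phenylalanine and was 3.39-fold lower (log2 difference -1.76, SE 0.19, adjusted p = 1.14e-05), and FRE1, the reductase that supplies copper and iron, 2.35-fold lower (log2 difference -1.23, SE 0.20, adjusted p = 0.000698). CTR1, another copper permease, was 2.20-fold lower, a call lost under 8 alternatives. Of 19 phosphate genes 6 were higher and 1 lower, with 2 and 0 under each covariate. PHO84, the high-affinity phosphate transporter, read 86.9, 58.2 and 61.7 with methionine against 9.4, 16.1 and 10.4 with phenylalanine, and phenylalanine lay below all 12 others (5.83-fold higher, log2 difference 2.54, SE 0.33, adjusted p = 0.0001). GIT1, a glycerophosphoinositol permease, was 2.88-fold higher (log2 difference 1.53, SE 0.25, adjusted p = 0.000749).

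Some mating genes of the a cell were higher with methionine. Of 23 genes of mating and mating type 7 were higher and 2 lower, beside 12.1% and 9.97% of all genes, and 14 did not pass (5 and 1 with the actin, 4 and 0 with the hybridisation covariate), and the lower calls became 1 without any 1 of the methionine arrays or phenylalanine 1. For 8 of the 23 the methionine arrays lay above all 12 others, against 4.18% of all genes. They lay below all others for SAG1, and for FIG1 the phenylalanine arrays lay above all others. STE6, the exporter of a-factor, read 182, 188 and 180.1 with methionine against 82.2, 80.5 and 67.6 with phenylalanine and was 2.40-fold higher (log2 difference 1.26, SE 0.17, adjusted p = 0.000102). STE2, the receptor for alpha-factor, was 2.30-fold higher (log2 difference 1.20, SE 0.19, adjusted p = 0.000478), BAR1, the protease that degrades alpha-factor, 2.05-fold higher (log2 difference 1.04, SE 0.20, adjusted p = 0.00244), and FAR1, which arrests the cell cycle on pheromone, 2.22-fold higher (log2 difference 1.15, SE 0.18, adjusted p = 0.000447). The pheromone genes MFA1 (0.47, adjusted p = 0.172) and MFA2 (-0.13, 0.788) did not pass. The 2 lower genes, MF(ALPHA)1 and SAG1, are alpha-cell genes with signals of at most 74.4 and 151 on all 15 arrays, and each call was lost under 6 alternatives.

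Of 24 chaperone genes 8 were higher and 0 lower, none of them by 2-fold, beside 12.1% of all genes higher (4 with the actin, 7 with the hybridisation covariate), with the HSP90 co-chaperones STI1 1.58-fold higher (log2 difference 0.66, SE 0.09, adjusted p = 0.00022) and HCH1 1.88-fold higher (log2 difference 0.91, SE 0.16, adjusted p = 0.0011). Of 47 cell wall genes 12 were lower and 2 higher (6 and 1 with the actin, 6 and 0 with the hybridisation covariate), beside 9.97% and 12.1% of all genes. The 12 became 7 without methionine 2 and 5 without methionine 3. The 2 became 1 without any 1 of the methionine arrays or phenylalanine 3 and 4 without phenylalanine 2. The wall proteins PST1 and SED1 were 1.90-fold lower (log2 difference -0.93, SE 0.16, adjusted p = 0.000865) and 1.75-fold lower (log2 difference -0.81, SE 0.13, adjusted p = 0.000574). Cytosolic ribosomal protein genes gave a count that single arrays decided. Of 81, 13 were lower and 0 higher, but 0 were lower with either covariate, 1 without methionine 2, 1 without phenylalanine 3, 5 without methionine 3, 8 without methionine 1 and 24 without phenylalanine 2. Of 74 ribosome assembly genes 8 were higher and 1 lower, a share of higher genes no larger than the 12.1% of all genes, and 1 and 0 with the actin and 2 and 0 with the hybridisation covariate. The 8 became 2 without methionine 1, 4 without methionine 2 or 3 and 1 without phenylalanine 3, and the 1 lower call ranged from 0 to 3.

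Outside the lists, the largest increase was that of YJL213W, an uncharacterised gene, which read 272, 464 and 386 with methionine against 49, 17.5 and 23.3 with phenylalanine and was 13.5-fold higher (log2 difference 3.75, SE 0.31, adjusted p = 8.68e-07), above the 22.8 to 109 of the other 3 sources. Its neighbour by chromosome order, the glutathione transporter gene OPT1, was lower. The adjacent genes YNR068C and BSC5 on chromosome XIV were both higher: YNR068C read 250.5, 275 and 323 with methionine against 25.6, 74.1 and 51.8 with phenylalanine (6.09-fold higher, log2 difference 2.61, SE 0.27, adjusted p = 1.14e-05), and BSC5 was at least 4.29-fold higher (33.9, 43.5 and 51.9 against 3.9, 5.4 and 4.2, adjusted p = 0.00136). IRC15, a microtubule-associated protein, was at least 3.09-fold higher (adjusted p = 0.000188). RAD59, which acts in recombination repair, read 28.7, 42.7 and 34.5 with methionine against 214, 352 and 293 with phenylalanine and was 8.05-fold lower (log2 difference -3.01, SE 0.21, adjusted p = 1.39e-07), below the 174 to 396 of the other 3 sources. Of the 15 largest increases, 5 were those of RIM9, ATG15, YJR154W, ECM29 and WHI5, whose calls were lost under 1 to 10 of the alternatives. ECM29 and YDR034C-A, the latter 12.3-fold lower (not called without phenylalanine 1 and 3), were read from probe sets with shared sequence and are uncertain.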

How the data were processed

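The authors deposited a linear intensity for each probe set of 15 single-colour Affymetrix YG_S98 chips, made with MAS5 per the submitters' processing notes. The MAS5 version is not given in the sources used here. Array means trimmed by 2% at each end were 150.09 to 150.15 for the deposited values, as after global scaling, which hold no detection flags. The number of arrays limits the precision.

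Control probe sets (60 of 9335) were removed. Signals below 2.0, the 10th percentile, were set to it before taking log2. The filter kept 7459 probe sets (80.4%) that exceeded an array's 25th percentile in at least 3 of 15 arrays. A mean for each source was fitted over all 15 arrays with limma 3.58.1 (R 4.3.3, eBayes with trend, 2-sided, Benjamini-Hochberg over all tested probe sets). Folds come from these log2 values, and the floor makes those of dim probe sets too small. Genes were named from probe sets with 1 gene in the platform annotation (6504, all matched to RefSeq), and the probe set with the highest mean stood for a gene. Of 271 genes with several tested probe sets, 70 were called, and for 30 of these another probe set was not called and for 6 it was called the other way. On simulated data with changes of 0.5, 1, 1.5 and 2 (log2, 50 probe sets each), the fit recovered 34%, 88%, 96% and 98%. There were 8 false calls among the unchanged probe sets of the 7459. The changed probe sets were drawn from brighter ones, the noise was normal and independent, and the sources were otherwise given equal means. Recovery of dim probe sets and the effect of differences in array quality were therefore not simulated.

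Named genes were taken from the 15 largest differences each way without overlap, 33 key genes and up to 4 members of each of 52 lists with the smallest adjusted p (1025 different genes tested). The comparison, lists and key genes were chosen with earlier results of these data known. ARO2, CRC1, CYS4, DAL1, DAL80, HOM2, HOM3, HOM6, HXT2, HXT6, HXT7, MET1, MET7, MET8, MET12, MET13, MET22, MET31, MF(ALPHA)1, MFA1, MFA2, OAF1, PCK1, PDC1, PEX5, PEX7, PHA2, PIP2, POT1, POX1, PUT1, PXA1, SAG1, SAH1, SAM4, SPE1, SPE2, SPE4, STR2, TYR1 and UGA4 were named after their values were seen. Alternatives were other normalizations, floors, filters and variance models, array weights, the 6 arrays alone, a replicate block, 2 covariates, left-out arrays and stricter thresholds.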

Additional observations from a re-analysis of the deposited data

How the results depend on the processing

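The count of 1660 calls stayed within 1.5 times under 13 settings: both other normalizations, 2 floors, 2 filters, a variance model without trend, weighted arrays, the replicate block, and leaving out methionine 1 or any single phenylalanine array (1204 to 1960). Without phenylalanine 1 and 3 the total of 1129 was also within 1.5 times, but the 425 higher calls were not. The total was 968 (607 higher, 361 lower) when only the 6 arrays were fitted, 626 (325 and 301) with the actin ratio as covariate and 638 (281 and 357) with the hybridisation control as covariate. Asking for a 2-fold difference left 612 (391 and 221), and a test against a difference of 0.5 on the log2 scale left 220 (107 and 113). Leaving out 1 array at a time gave 990 to 1960 calls, 554 to 1201 higher and 435 to 759 lower. The cause of these changes was not tested, beyond the smaller number of samples in the fits of 6 arrays and without arrays. At an unadjusted p below 0.05, 2714 probe sets passed. Array numbers did not pair the samples: deviations of same-numbered arrays correlated at -0.02, -0.02 and -0.07, and the replicate block gave 1660 calls (943 higher, 717 lower), 1558 of them (93.9%) shared with the fit without it. No named gene changed direction to a call the other way under any setting. The search of promoters for motifs was not run. Dim probe sets give only bounds.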

Other observations

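Several plasma membrane exporters of drugs were higher with methionine. Of 23 tested genes 6 were higher and 2 lower (5 and 1 with the actin, 3 and 3 with the hybridisation covariate), beside 12.1% and 9.97% of all genes, and the lower calls became 4 without phenylalanine 3 and 1 without methionine 3. QDR3, a drug and polyamine exporter, read 837, 860 and 729 with methionine against 333, 435 and 336 with phenylalanine and was 2.21-fold higher (log2 difference 1.14, SE 0.14, adjusted p = 6.24e-05). Its relative QDR2 read 75.6, 87.9 and 81.6 with methionine against 40.3, 33.2 and 28.4 with phenylalanine and was 2.43-fold higher (log2 difference 1.28, SE 0.22, adjusted p = 0.0011), and the ABC transporter SNQ2 was 1.83-fold higher (log2 difference 0.87, SE 0.15, adjusted p = 0.000993). These 3 calls held in all of the 19 alternative settings in which they were tested, which do not include the stricter thresholds. Among 29 ergosterol genes 4 were lower and 2 higher (3 and 0 with each covariate), and the 4 became 2 without methionine 3. The 20.7% called was no larger than the 22.1% of all genes. ERG6, the sterol methyltransferase, which uses S-adenosylmethionine, read 840.3, 805 and 912 with methionine against 1412, 1339 and 1359 with phenylalanine and was 1.61-fold lower (log2 difference -0.69, SE 0.11, adjusted p = 0.00046). Of 17 phospholipid genes under inositol control 4 were lower and 1 higher (1 and 0 with each covariate), 29.4% beside 22.1% of all genes. Of 34 autophagy genes 6 were higher and 2 lower, 23.5% beside 22.1% of all genes. Of these lists' higher calls, those of autophagy were 0 with either covariate, 2 without methionine 2, 2 without methionine 3 and 3 without phenylalanine 3. ATG34, a receptor of selective autophagy, read 229, 189 and 205 with methionine against 411, 439 and 377 with phenylalanine and was 1.97-fold lower (log2 difference -0.98, SE 0.12, adjusted p = 6.81e-05). That call held in the same 19 settings.

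Other groups differed in few members. Of 21 genes of the tricarboxylic acid cycle 5 were lower and 1 higher (2 and 0 with the actin, 1 and 0 with the hybridisation covariate). Of 20 trehalose and glycogen genes 3 were lower and 1 higher (1 and 0 with the actin, 3 and 0 with the hybridisation covariate). Without phenylalanine 3 the lower calls numbered 7, and the 1 higher call was lost without methionine 2, methionine 3, phenylalanine 1 or phenylalanine 3 and became 2 without phenylalanine 2. Of 31 general stress genes 4 were lower and 3 higher (1 and 2 with the actin, 3 and 0 with the hybridisation covariate), and the 4 became 2 without any 1 of the methionine arrays or phenylalanine 2, while the 3 became 6 without phenylalanine 2. Of 16 sporulation and meiosis genes 4 were lower and 1 higher (2 and 1 with the actin, 1 and 1 with the hybridisation covariate), and the 4 became 1 without methionine 2 and 2 without methionine 3 or phenylalanine 3. Of 34 proteasome genes 2 were higher and 0 lower, a smaller share than the 12.1% of all genes higher (1 and 0 with each covariate, 1 higher without methionine 3, 2 lower without phenylalanine 2). RPN7, a subunit of the regulatory particle, was higher by 1.76-fold (log2 difference 0.82, SE 0.14, adjusted p = 0.000748). None of 10 seripauperin genes, a family of small wall proteins, was called, though 3 were higher without phenylalanine 2. Mitochondrial ribosomal protein genes gave 6 higher and 0 lower of 67 (3 and 0 with each covariate), which became 11 without phenylalanine 2 and 10 without phenylalanine 3.

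Among the 30 genes with the largest differences, 3 pairs were neighbours in chromosome order, MHT1 and MMP1, SNO1 and SNZ1, and YNR068C and BSC5, and the genes of each pair differed in the same direction. Over all genes 12.1% were higher and 9.97% lower. Of 21 tested genes next to the largest increases 6 were higher and 4 lower, and of 26 next to the largest decreases 2 were higher and 4 lower. The counts of neighbours include the pairs themselves.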
